A study of Mus musculus with 12 samples.

Results

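The genes described here encode enzymes that build triglyceride from glycerol 3-phosphate and fatty acyl-CoA. With them are Mogat1, which starts from monoacylglycerol, and Mttp, which loads triglyceride onto apolipoprotein B. All of these genes were picked by gene symbol as 10 of the 56748 genes counted in mouse liver RNA: Gpam, Gpat3, Gpat4, Agpat2, Lpin1, Lpin2, Dgat1, Dgat2, Mogat1 and Mttp. All 10 passed the filter on low counts in each of the 3 comparisons. Livers came from C57BL6 lines after a 24 h fast, with 4 livers in each of 3 genotypes. Controls, called WT, carry the label CPT1A/1B/2 triple floxed. In the RT-qPCR of the double knockout line, the controls of the study were instead floxed at Atf3 and Cpt2. If the WT livers are of another line than the knockouts, line and genotype cannot be told apart in comparisons with WT. Single knockouts (SKO) lacked Cpt2, the inner-membrane enzyme that hands long-chain acyl-CoA to mitochondrial β-oxidation, in liver only. Double knockouts (DKO) lacked both Cpt2 and Atf3, a stress-induced transcription factor of the ATF/CREB family, in liver only. In both knockouts Cre was driven by the albumin promoter, which is active in the hepatocyte lineage. Ages were not given. The study calls the mice of this RNA-seq experiment male, but SKO replicate 3 and DKO replicate 4 read as female by their Xist and Y-linked counts, given below.

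During a fast, adipose tissue releases fatty acids that the liver either oxidizes or re-esterifies. Re-esterification begins when a glycerol 3-phosphate acyltransferase makes lysophosphatidic acid, which an AGPAT turns into phosphatidic acid. A lipin removes the phosphate to leave diacylglycerol, and a diacylglycerol acyltransferase adds the last acyl chain. The finished triglyceride is stored in lipid droplets or is loaded by the microsomal triglyceride transfer protein onto apolipoprotein B in the endoplasmic reticulum for export as very low-density lipoprotein (VLDL). The comparison of SKO with WT asks how these genes differ when Cpt2 is missing from mitochondrial β-oxidation of long-chain acyl-CoA. That of DKO with SKO asks what the loss of Atf3 adds.

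Promoters of 5 of these genes are shown because 4 of them belong to members that rose in SKO livers and carry the core of the cAMP response element (CRE), the kind of site that ATF/CREB proteins bind, and 1 belongs to the member that fell. Each window holds 250 bases before and 50 bases after an annotated start, 5′ to 3′ on the gene's strand, from RefSeq on GRCm38.p6. In the Mttp, Gpat3, Lpin2 and Gpam windows capitals mark matches to the motifs searched, mostly CGTCA, the reverse strand of TGACG. The Agpat2 window has no capitals because it held no match.
Mttp (chr3:138143369-138143668, minus strand): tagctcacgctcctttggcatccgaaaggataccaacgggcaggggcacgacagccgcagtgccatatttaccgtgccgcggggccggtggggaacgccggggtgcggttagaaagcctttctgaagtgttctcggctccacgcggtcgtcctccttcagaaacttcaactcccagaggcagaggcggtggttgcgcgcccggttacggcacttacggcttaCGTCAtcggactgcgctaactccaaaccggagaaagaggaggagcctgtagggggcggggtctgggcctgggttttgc
Gpat3 (chr5:100845979-100846278, plus strand): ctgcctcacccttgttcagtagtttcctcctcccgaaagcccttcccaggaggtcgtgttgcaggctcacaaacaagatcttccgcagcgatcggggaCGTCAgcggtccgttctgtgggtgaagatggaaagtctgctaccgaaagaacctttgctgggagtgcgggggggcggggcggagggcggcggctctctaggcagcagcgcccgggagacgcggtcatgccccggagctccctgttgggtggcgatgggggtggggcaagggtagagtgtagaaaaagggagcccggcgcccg
Lpin2, first of 3 starts (chr17:71183282-71183581, plus strand): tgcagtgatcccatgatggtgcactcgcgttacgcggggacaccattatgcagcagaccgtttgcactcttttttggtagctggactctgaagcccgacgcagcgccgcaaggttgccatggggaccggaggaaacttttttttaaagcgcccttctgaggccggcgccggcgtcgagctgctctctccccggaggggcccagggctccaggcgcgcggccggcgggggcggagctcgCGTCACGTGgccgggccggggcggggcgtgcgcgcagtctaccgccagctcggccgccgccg
Gpam, second of 2 starts (chr19:55099428-55099727, minus strand): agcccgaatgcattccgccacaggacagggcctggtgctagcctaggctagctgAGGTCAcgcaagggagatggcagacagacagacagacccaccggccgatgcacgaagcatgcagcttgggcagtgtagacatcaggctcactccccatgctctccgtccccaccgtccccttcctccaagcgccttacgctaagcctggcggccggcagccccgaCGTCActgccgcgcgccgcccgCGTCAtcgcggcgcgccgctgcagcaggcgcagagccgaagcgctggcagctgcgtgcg
Agpat2 (chr2:26604368-26604667, minus strand): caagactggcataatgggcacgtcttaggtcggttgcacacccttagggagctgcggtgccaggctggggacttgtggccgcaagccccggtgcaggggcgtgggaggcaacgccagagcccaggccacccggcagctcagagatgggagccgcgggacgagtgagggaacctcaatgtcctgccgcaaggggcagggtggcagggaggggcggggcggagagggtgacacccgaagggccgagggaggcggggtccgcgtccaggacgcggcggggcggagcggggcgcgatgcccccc

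The CRE core TGACG, searched on both strands, began at position -28 from the start in Mttp, -152 in Gpat3, -12 in Lpin2, and -31 and -9 in Gpam. In Lpin2 its last bases overlapped an E-box, CACGTG, at -9. RefSeq gave 10 windows for 7 of the 10 genes, and 4 of these 10 held TGACG, against 20.8% of all 32851 promoter windows. The site did not follow the direction throughout, since the window of Mogat1, which also rose in SKO livers, did not hold it and had only a CCAAT match. Dgat1, which rose too, had no window in the table, and the 4 windows with TGACG were printed for holding it. The whole element TGACGTCA was in 0 of 10 windows and in 1.79% of all windows, and the AP-1 site TGANTCA in 0 of 10 and in 7.81%. AGGTCA, a core that many nuclear receptors recognize, was in the Gpam window shown and in the Lpin1 window, and 16.3% of all windows held it. CCAAT was in 3 of 10 windows and 37.4% of all, and TCACNCCAC, a sterol regulatory element, in 0 of 10 and 1.24%. Windows with more than 1 start belong to the same gene, and which start these livers use cannot be read from counts per gene, so a match describes the letters in a window and no binding.

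Total counts were 14710304 to 20030055 per liver, and 3 counts, the limit that a count of 0 allows, corresponded to 0.150 to 0.204 CPM (counts scaled to a common library size), for counting error only. Levels below are CPM after TMM scaling over the 12 livers. Cpt2 had 199 to 250 CPM in WT and 99.9 to 159 CPM in knockout livers. Atf3 had 17 to 39 counts in WT, 259 to 1056 in SKO, and 164, 177, 265 and 5 counts in DKO replicates 1 to 4. Because counts are per gene, reads on the deleted exons cannot be separated from the rest, and each liver is taken as its label says. SKO replicate 3 and DKO replicate 4 had 18063 and 20855 counts on Xist with 2 and 0 on 4 Y-linked genes, whereas the other 10 livers had at most 19 on Xist and 2741 to 4294 on the Y-linked genes. By these counts SKO replicate 3 and DKO replicate 4 read as female and the other livers as male. Sex was thus mixed within SKO and within DKO but not within WT, and its part in the results was not tested. DKO replicate 4 also differed more from the other DKO livers (chi-square of counts per degree of freedom of 194 to 231) than these did from each other (27.7 to 33.3). Values without this liver are therefore also given for DKO livers. The summed level of 8 hepatocyte markers was 94031 to 114860 CPM over the WT livers, 45057 to 68897 CPM over the SKO livers and 56810, 54180, 47520 and 118866 CPM in DKO replicates 1 to 4. DKO replicates 1 to 3 thus lay below every WT liver, and DKO replicate 4 lay above all of them and had the most Alb of all livers, 74165 CPM. Of the 8, 7 were lower in SKO livers (all but Cps1, with a log2 fold change of -0.03), against 15.4% of all genes. In DKO livers 1 of the 8, Serpina3k, was lower, against 4.39% of all genes. Without DKO replicate 4, 7 of 8 were lower in DKO livers, again all but Cps1, against 17.5% of all genes, and the call of Serpina3k held in 2 of 8 fits that each left out 1 liver. Their part in the results was not tested, and in whole liver fewer cells of a type and less RNA per cell cannot be told apart.

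In SKO livers 6 of the 10 genes rose and 1 fell, which are 7 genes past an adjusted p of 0.05 against 32.1% of the 14261 genes tested in this comparison (16.7% higher, 15.4% lower). Scaled by library totals alone, the split over all genes was 3759 higher and 1562 lower in place of 2378 and 2198, and among the members 7 higher and 1 lower. Those that rose were Gpat3, Lpin2, Mogat1, Dgat1, Mttp and Gpam, and the one that fell was Agpat2. The same 7 genes were those whose SKO and WT livers did not overlap, as was so for 33.2% of all genes (17.2% higher, 16.1% lower). In DKO livers the direction was the same for each of these 7, but only Gpat3, Lpin2 and Agpat2 passed the test, against 10.5% of 14448 genes (6.06% higher, 4.39% lower), and with library totals alone 1788 genes were higher and 469 lower in place of 876 and 634. The same 3 were those without overlap, and so were 16.8% of all genes (7.72% higher, 9.05% lower). Without DKO replicate 4, 7 of the 10 passed (Gpat3, Lpin2, Dgat1 and Mttp higher, Agpat2, Lpin1 and Dgat2 lower), and so did 35.9% of all genes (18.4% higher, 17.5% lower). None of the 10 passed between DKO and SKO livers, where 0.0209% of 14363 genes did (0.00696% higher, 0.0139% lower). The SKO and DKO comparisons share the WT livers. Tests are quasi-likelihood tests of edgeR, adjusted over all genes tested by Benjamini and Hochberg's method, and p-values measure the spread between these livers.

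**Figure D1:**
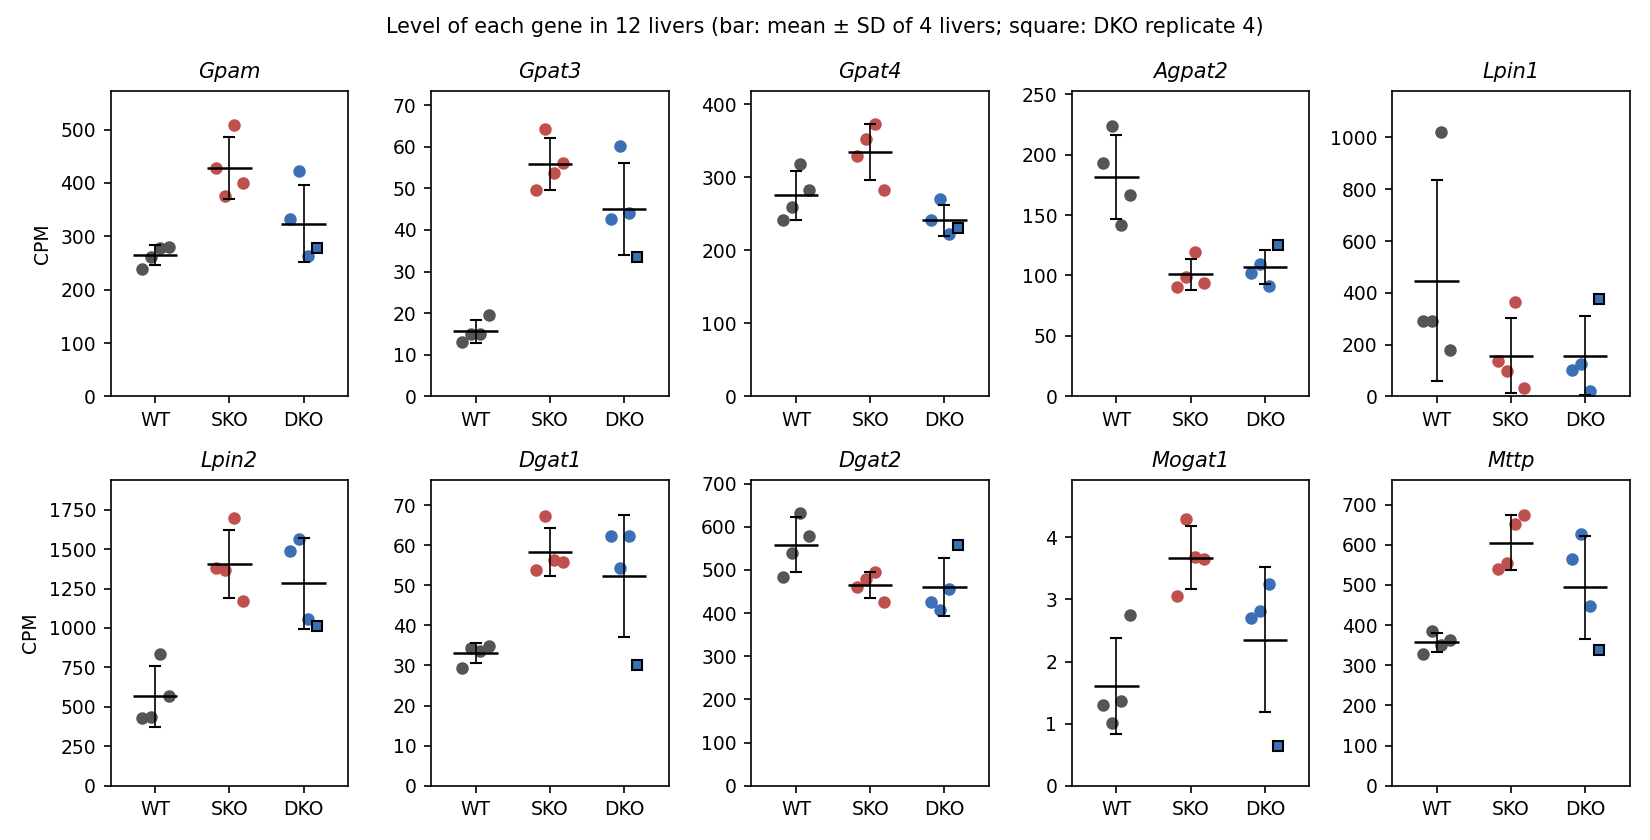
Level of each gene in CPM (vertical axes from 0) in the 4 livers of each genotype, with bars for mean ± SD and a square for DKO replicate 4. The SKO livers lie above all WT livers for Gpam, Gpat3, Lpin2, Dgat1, Mogat1 and Mttp and below them for Agpat2, and DKO replicate 4 lies among or below the WT livers for Dgat1, Mogat1 and Mttp.

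Per length of the gene (CPM per kb), Dgat2 was the most abundant of the 10 in all 3 genotypes and Mogat1 the least. In WT livers Dgat2 had a mean of 181 CPM per kb, Agpat2 85.1, Mttp 57.5, Lpin2 46.2, Lpin1 45.0, Gpat4 41.2, Gpam 39.7, Dgat1 10.8, Gpat3 4.48 and Mogat1 1.03. From Mttp to Gpam each neighbour in that order overlapped the next between livers, and the other neighbours did not overlap. In SKO livers the order was Dgat2 at 151, Lpin2 at 115, Mttp at 97.5, Gpam at 64.2, Gpat4 at 50.0, Agpat2 at 47.4, Dgat1 at 19.1, Gpat3 at 16.0, Lpin1 at 15.9 and Mogat1 at 2.36 CPM per kb. Agpat2 thus moved from the second place to the sixth and Lpin2 from the fourth to the second, although Lpin2 overlapped both of its neighbours in SKO livers, as did Gpat3, and Gpat4 overlapped Agpat2. DKO livers had Dgat2 at 150, Lpin2 at 105, Mttp at 79.6, Agpat2 at 50.3, Gpam at 48.6, Gpat4 at 36.1, Dgat1 at 17.1, Lpin1 at 15.9, Gpat3 at 12.9 and Mogat1 at 1.51 CPM per kb. There Dgat2 and Mogat1 stood clear of their neighbours, as did Gpat4 of Dgat1, and every other neighbour overlapped the next.

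The first step is carried out by Gpam, the mitochondrial glycerol 3-phosphate acyltransferase, and by Gpat3 and Gpat4 in the endoplasmic reticulum. Gpat3 (ENSMUSG00000029314, chromosome 5, 100993579 to 101046968 in the coordinates of the table) had 13.0, 15.0, 15.0 and 19.6 CPM in WT replicates 1 to 4. SKO replicates 1 to 4 had 49.5, 64.3, 53.6 and 56.2 CPM, and DKO replicates 1 to 4 had 42.6, 60.2, 44.1 and 33.6 CPM. Every knockout liver lay above every WT liver, and SKO and DKO livers overlapped. The log2 fold change was 1.83 (SE 0.15, adjusted p = 7.46e-06, edgeR) in SKO, a 3.56-fold difference, and 1.53 (SE 0.19, adjusted p = 0.00544) in DKO against WT. Gpat3 had the largest change of the 10 genes in either comparison with WT among those that passed. 4930458D05Rik overlaps Gpat3 on the opposite strand with up to 60 counts, at most 14.3% of those of Gpat3 in the same liver. Gm42987 overlaps it on the same strand with up to 21 counts, at most 2.54%.

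Gpam (ENSMUSG00000024978, chromosome 19, 55055700 to 55115670) had 239, 262, 278 and 281 CPM in the WT livers, 428, 376, 508 and 401 CPM in SKO livers, and 333, 423, 263 and 277 CPM in DKO livers. SKO livers did not overlap WT livers, whereas DKO replicates 3 and 4 were within the WT range. Gpam rose by a log2 fold change of 0.69 (SE 0.13, adjusted p = 0.00194, edgeR) in SKO livers. The value for DKO against WT was 0.30 (SE 0.16, adjusted p = 0.246) and did not pass.

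Gpat4 (ENSMUSG00000031545, chromosome 8, 23661281 to 23698362) had 241, 260, 319 and 282 CPM in WT, 329, 353, 372 and 283 in SKO, and 241, 271, 222 and 230 in DKO livers. It was the only member whose SKO and DKO livers did not overlap. Neither knockout differed from WT by the test (log2 fold change of 0.28 with SE 0.14 and adjusted p = 0.145 in SKO, -0.18 with SE 0.13 and adjusted p = 0.387 in DKO, edgeR). Between DKO and SKO the log2 fold change was -0.45 (95% interval -0.79 to -0.11), with an unadjusted p of 0.0139 and an adjusted p of 0.630 by edgeR, and the adjusted p was 0.188 to 0.9995 over the alternatives tried. Groups did not overlap for 3.94% of all genes in this comparison (2.08% higher, 1.86% lower). Scaled by library totals alone, which moves the median of all genes by 0.17 on the log2 scale, Gpat4 passed in SKO against WT (0.45, adjusted p = 0.0156).

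Of the summed CPM per kb of these 3 enzymes, Gpat3 made up 4.58 to 6.23% in the WT livers, 10.4 to 14.4% in the SKO livers and 11.2 to 14.8% in the DKO livers. The share of Gpat4 was 46.9 to 50.9%, 35.7 to 41.4% and 33.4 to 40.2% in the same order, and in both cases the WT livers stood apart from the knockout livers, DKO replicate 4 included. The share of Gpam was 44.5 to 47.7%, 44.2 to 51.7% and 46.3 to 52.4%, and 3 SKO and 3 DKO livers lay above every WT liver. These shares are descriptions and were not tested.

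Agpat2, which acylates lysophosphatidic acid, was the member that fell. Agpat2 (ENSMUSG00000026922, chromosome 2, 26483069 to 26494429) had 193, 223, 142 and 167 CPM in WT livers, 90.7, 98.9, 120 and 94.1 in SKO livers and 102, 110, 91.4 and 125 in DKO livers. All 8 knockout livers lay below the lowest WT liver. The log2 fold change was -0.85 (SE 0.16, adjusted p = 0.00167, edgeR) in SKO, or 0.555-fold of WT, and -0.75 (SE 0.17, adjusted p = 0.0259) in DKO. Egfl7, on the opposite strand, overlaps Agpat2 and had up to 697 counts, at most 38.8% of the counts of Agpat2 in the same liver. Whether counting used strand is not given in the sources used here, so reads from the shared stretch cannot be told apart.

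The lipins Lpin1 and Lpin2 are phosphatidic acid phosphatases, and Lpin1 also acts as a coactivator of fasting genes. Lpin2 (ENSMUSG00000024052, chromosome 17, 71489555 to 71556812) had 426, 434, 835 and 568 CPM in WT livers. SKO livers had 1381, 1370, 1697 and 1173 CPM, and DKO livers had 1491, 1565, 1059 and 1013 CPM. All knockout livers lay above all WT livers. Lpin2 rose by a log2 fold change of 1.31 (SE 0.22, adjusted p = 0.000906, edgeR), 2.48-fold, in SKO and by 1.19 (SE 0.25, adjusted p = 0.0227), 2.28-fold, in DKO livers.

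Lpin1 (ENSMUSG00000020593, chromosome 12, 16585670 to 16696967) was the most variable member. Its WT livers had 292, 293, 1023 and 180 CPM, its SKO livers 137, 99.1, 363 and 33.2 CPM, and its DKO livers 104, 127, 22.7 and 378 CPM. The groups overlapped in each comparison, and WT replicate 3, SKO replicate 3 and DKO replicate 4 were the highest of their groups. Neither the log2 fold change of -1.50 (SE 0.66, adjusted p = 0.106, edgeR) in SKO nor that of -1.48 (SE 0.78, adjusted p = 0.235) in DKO passed. Without SKO replicate 3 the first was -2.31 (adjusted p = 0.0136), and without DKO replicate 4 the second was -2.41 (adjusted p = 0.0155). Without WT replicate 3 the value in DKO was -0.68 (adjusted p = 0.585) and that in SKO -0.71 (adjusted p = 0.402).

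The ratio of Lpin2 to Lpin1, per length, was 0.662 to 2.56 in WT livers and 3.80 to 28.7 in SKO livers. DKO replicates 1 to 4 had ratios of 11.7, 10.0, 37.9 and 2.18, of which the last was within the WT range. The ratio was not tested.

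Dgat1 and Dgat2 each catalyze the final acylation but share no sequence family. Dgat1 is known for re-esterifying fatty acids from outside the cell, and Dgat2 for using those made within it. Dgat1 (ENSMUSG00000022555, chromosome 15, 76386215 to 76396153) had 29.4, 34.4, 33.7 and 34.8 CPM in WT, 53.9, 67.2, 56.4 and 55.9 in SKO, and 62.3, 54.5, 62.4 and 30.2 in DKO livers. SKO livers were all above the WT livers, as were DKO replicates 1 to 3, but DKO replicate 4 was second lowest of all 12. In SKO livers Dgat1 rose by a log2 fold change of 0.82 (SE 0.12, adjusted p = 0.000301, edgeR), 1.76-fold. DKO against WT gave 0.67 (SE 0.21, adjusted p = 0.0653), which did not pass, and 0.86 (adjusted p = 9.57e-05) without DKO replicate 4.

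Dgat2 (ENSMUSG00000030747, chromosome 7, 98802865 to 98831926) had 483, 539, 632 and 579 CPM in WT livers, 461, 479, 494 and 425 in SKO livers and 425, 406, 456 and 557 in DKO livers. The groups overlapped in each comparison. Its log2 fold change was -0.27 (SE 0.13, adjusted p = 0.137, edgeR) in SKO and -0.26 (SE 0.15, adjusted p = 0.293) in DKO, and the latter was -0.37 (adjusted p = 0.0324) without DKO replicate 4.

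Per length, Dgat2 was 15.5 to 18.6 times as abundant as Dgat1 in WT livers and 7.06 to 8.69 times in SKO livers. In DKO replicates 1 to 3 the ratio was 6.77, 7.40 and 7.24, and in DKO replicate 4 it was 18.3, within the WT range. These ratios were not tested.

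**Figure D2:**
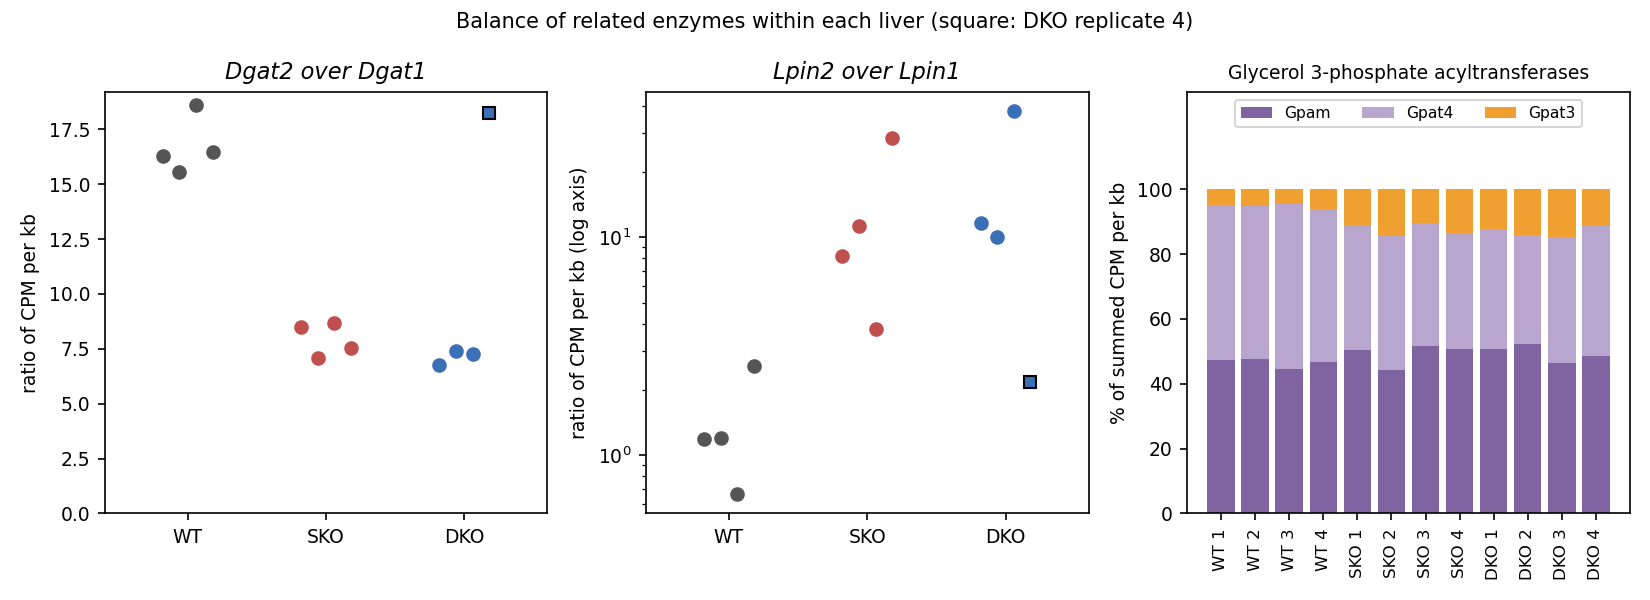
Ratios of Dgat2 to Dgat1 and of Lpin2 to Lpin1 (CPM per kb, the second on a log axis) and the share of each glycerol 3-phosphate acyltransferase in their sum (%), in each of the 12 livers, with a square for DKO replicate 4. DKO replicate 4 sits with the WT livers in both ratios (18.3 and 2.18), while its Gpat3 share lies with the other knockout livers.

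Mogat1 makes diacylglycerol from monoacylglycerol and so bypasses the steps before the final acylation. It was barely expressed, with 12 to 84 counts per liver. Mogat1 (ENSMUSG00000012187, chromosome 1, 78487628 to 78514810) had 1.30, 1.01, 1.37 and 2.75 CPM in WT, 3.05, 4.30, 3.69 and 3.65 in SKO, and 2.70, 2.82, 3.25 and 0.639 in DKO livers. SKO livers lay above WT livers without overlap, and DKO livers spanned the WT range. It rose in SKO livers by a log2 fold change of 1.18 (SE 0.32, adjusted p = 0.0140, edgeR), a call that was lost in a fit over all 12 livers (1.17, adjusted p = 0.0557). The value in DKO livers was 0.55 (SE 0.49, adjusted p = 0.484), and 0.86 (adjusted p = 0.0745) without DKO replicate 4. BC035947 overlaps it on the opposite strand with up to 28 counts, at most 39.4% of those of Mogat1 in the same liver.

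Mttp (ENSMUSG00000028158, chromosome 3, 137795615 to 137850729), whose product is the lipid-carrying subunit of the transfer protein, had 327, 385, 351 and 364 CPM in WT livers. SKO livers had 540, 555, 651 and 675 CPM, all above the WT livers. DKO livers had 564, 627, 447 and 338 CPM, of which replicate 4 lay within the WT range. The log2 fold change was 0.76 (SE 0.13, adjusted p = 0.000886, edgeR), 1.69-fold, in SKO livers. In DKO livers it was 0.48 (SE 0.19, adjusted p = 0.121), and 0.62 (adjusted p = 0.00294) without DKO replicate 4.

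The 3 calls in DKO against WT also depended on other livers. Leaving out any one of WT replicates 1, 2 and 4 or DKO replicates 1, 2 and 3 left Gpat3 as the only member past the threshold, with adjusted p-values of 0.0634 to 0.0807 for Agpat2 and 0.0549 to 0.0762 for Lpin2 (edgeR). Leaving out WT replicate 3 kept all 3 calls. The mean ± SD of DKO livers without replicate 4 (n = 3) was 49.0 ± 9.76 CPM for Gpat3, 1372 ± 273 for Lpin2, 59.7 ± 4.54 for Dgat1, 546 ± 91.0 for Mttp, 339 ± 80.1 for Gpam, 2.92 ± 0.291 for Mogat1 and 101 ± 9.17 for Agpat2. The means of SKO livers (n = 4) were 55.9 ± 6.21, 1405 ± 217, 58.4 ± 6.00, 605 ± 67.9, 428 ± 57.3, 3.67 ± 0.509 and 101 ± 13.1 CPM for the same genes in that order.

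Between DKO and SKO livers 0 of the 10 genes passed by edgeR or by DESeq2. At an unadjusted p under 0.05 there was 1 of 10, Gpat4, against 6.49% of all genes (4.11% higher, 2.38% lower). For Gpam the log2 fold change was -0.39 (95% interval -0.80 to 0.031) and for Gpat3 -0.29 (-0.68 to 0.094). Mttp gave -0.28 (-0.73 to 0.17), Dgat1 -0.14 (-0.61 to 0.33), Lpin2 -0.12 (-0.58 to 0.35) and Mogat1 -0.63 (-1.52 to 0.26). For Agpat2 the value was 0.11 (-0.25 to 0.47), for Dgat2 0.014 (-0.37 to 0.39) and for Lpin1 0.031 (-1.74 to 1.81). These intervals leave room for a difference in either direction for each of these 9 genes, and for Lpin1 for more than 3-fold either way. Directions of Lpin1, Lpin2, Dgat1 and Dgat2 turned under some alternatives and are not read.

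**Figure D3:**
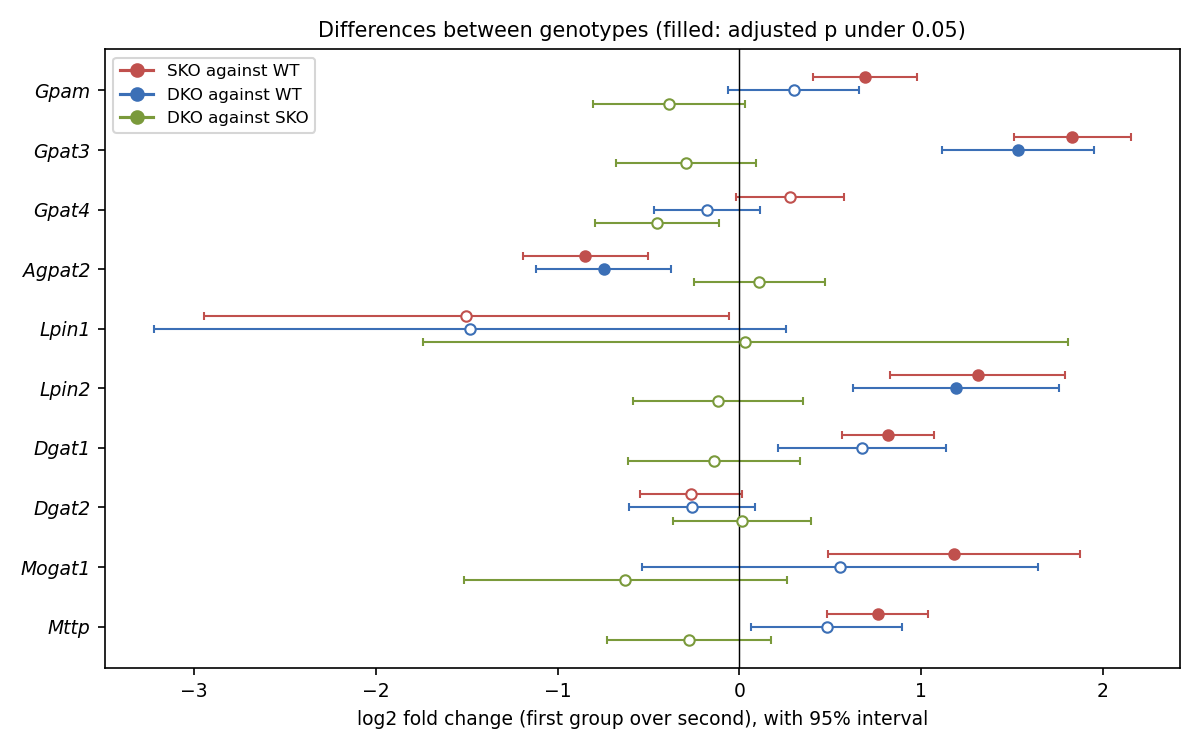
Log2 fold change of each gene (horizontal axis) in SKO against WT, DKO against WT and DKO against SKO, with 95% intervals, filled where the adjusted p was under 0.05. Gpat3 is farthest to the right among the filled points (1.83 in SKO, 1.53 in DKO), Agpat2 is the only gene with filled points on the left, and no point of DKO against SKO is filled.

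Each member was also set beside the genes whose log2 CPM, centred on its mean over the 12 livers, lay closest to its own. The measure is the root mean square difference over the 12 livers, among 9781 genes with a mean of at least 5 CPM. For Dgat1, whose own spread was 0.44, the closest were Acsf3 at 0.095 and Aprt at 0.10. For Mttp, with a spread of 0.38, they were Ube2e2 at 0.073 and Klhl7 at 0.090, and for Gpam, with 0.34, Etfdh and Acad11, both at 0.12. Gpat3 (spread 0.83) was closest to Nceh1 and Det1, both at 0.18, and Lpin2 (0.68) to Gm20186 at 0.24 and Pawr at 0.25. For Agpat2 (0.42) the closest were Fgfr4 and Prkaca at 0.14, for Gpat4 (0.24) Chn2 and Scarb2 at 0.11, and for Dgat2 (0.19) Zbtb44 at 0.056 and H2-K1 at 0.078. Lpin1 (1.46) had Il6ra at 0.70 and Cyp2c38 at 0.72, and Mogat1 (0.78) had Rab34 at 0.31 and Gm14494 at 0.33. Relative to their spread, Lpin1, Mogat1 and Gpat4 had no gene as close as Dgat1 or Mttp had.

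The other enzymes that supply or share the pathway were read from a list of 13 genes, of which 5 were higher and 1 lower in SKO livers, against 16.7% and 15.4% of all genes, with a median log2 fold change of 0.31 against 0.031 over all genes. Without WT replicate 3 or WT replicate 4, 3 were higher and 1 lower. Glycerol kinase, Gk, which makes glycerol 3-phosphate from glycerol, had 196 ± 28.4 CPM in WT and 416 ± 38.2 in SKO livers (mean ± SD, n = 4, log2 fold change 1.08, adjusted p = 0.000138, edgeR). Gpd1, which makes it from dihydroxyacetone phosphate, fell from 565 ± 69.4 to 332 ± 98.4 CPM (-0.77, adjusted p = 0.0117). The phosphatases Plpp2 and Lpin3 rose by 0.89 (adjusted p = 0.000454) and 0.79 (adjusted p = 0.00786). In DKO livers Gpd1 fell to 260 ± 27.0 CPM (-1.11, adjusted p = 0.00623) and was the only gene of the list past the threshold (against 6.06% of all genes higher and 4.39% lower), and Gk had 308 ± 86.0 CPM (0.66, adjusted p = 0.0565, and 0.75, adjusted p = 0.00529, without DKO replicate 4). Without DKO replicate 4, 5 were higher and 2 lower in DKO livers, against 18.4% and 17.5% of all genes.

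Among 19 partners in VLDL assembly and export, 3 were higher and 5 lower in SKO livers, against 16.7% and 15.4% of all genes. This balance turned with the scaling, since library totals alone gave 8 higher and 1 lower. That scaling moved all genes towards higher too, to a median log2 fold change of 0.20, so the turn is not read as a trait of this list. In the main test the median log2 fold change of the list was -0.0066 against 0.031 over all genes, while the median over the 10 members was 0.73. Apob, which takes up the lipid that Mttp transfers, had 8419 ± 747 CPM in WT and 5642 ± 1563 in SKO livers (-0.58, adjusted p = 0.0468, edgeR), the opposite direction to Mttp. That call held in only 1 of the 8 fits that left out 1 liver, the one without SKO replicate 1, with adjusted p-values of 0.0588 to 0.121 in the other 7. In DKO livers it had 5418 ± 1280 CPM (-0.63, adjusted p = 0.0817). P4hb, the protein disulfide isomerase that is the other subunit of the transfer protein, had 1304 ± 99.3, 1163 ± 181 and 1101 ± 114 CPM in WT, SKO and DKO livers and passed in neither comparison (adjusted p = 0.426 and 0.301). Fitm2, a protein of lipid droplet budding, rose by 0.99 (adjusted p = 0.000362) and Lpcat3, which remodels phospholipids, by 0.67 (adjusted p = 0.000989) in SKO livers. Tm6sf2, needed for full lipidation of VLDL, fell by 1.05 on the log2 scale (adjusted p = 0.000525) and Pla2g12b by 0.36 (adjusted p = 0.0249). Only Lpcat3 passed in DKO livers (0.46, adjusted p = 0.0476), a call that was lost when any liver other than DKO replicate 4 was left out, and 6.06% of all genes were higher there. Without the latter, 3 partners were higher and 5 lower, against 18.4% and 17.5% of all genes. The call of Pla2g12b in SKO livers was lost without WT replicate 2 or 4 or SKO replicate 1 (adjusted p = 0.0594 to 0.0744). Leaving out SKO replicate 3 left 3 higher and 3 lower, without Apob and Mia3, and WT replicate 4 left 2 higher and 1 lower.

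Triglyceride hydrolysis was represented by 10 tested genes of 11, of which 5 were higher and 2 lower in SKO livers, against 16.7% and 15.4% of all genes, with a median log2 fold change of 0.56. Pnpla2, adipose triglyceride lipase, rose from 187 ± 7.80 to 604 ± 139 CPM (1.69, adjusted p = 2.45e-05, edgeR) and had 343 ± 116 CPM in DKO livers (0.89, adjusted p = 0.0473). Hilpda, an inhibitor of that lipase, rose from 1.94 ± 0.384 to 18.9 ± 7.41 CPM (3.27, adjusted p = 2.09e-05) and to 24.8 ± 14.6 CPM in DKO livers (3.67, adjusted p = 0.00892). The lipase Ddhd2 rose by 1.24 (adjusted p = 0.000389) and the esterase Aadac fell by 0.68 (adjusted p = 0.00101) in SKO livers. In DKO livers 2 genes, Pnpla2 and Hilpda, were higher and 0 lower, against 6.06% and 4.39% of all genes, and without DKO replicate 4 these counts were 4 and 3, against 18.4% and 17.5% of all genes. The call of Pnpla2 in DKO livers was lost without any of the other 7 livers (adjusted p = 0.105 to 0.124), while Hilpda passed in all 8 such fits.

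The phospholipid branch, which draws on the same phosphatidic acid and diacylglycerol, had 2 genes higher and 3 lower of 12 tested in SKO livers, with a median log2 fold change of -0.035. With 16.7% of all genes higher and 15.4% lower, the share of higher genes did not stand out from the background. Library totals alone, which also moved all genes towards higher, gave 3 higher and 2 lower. Choline kinase Chka rose from 24.8 ± 3.19 to 76.4 ± 14.3 CPM (1.62, adjusted p = 2.34e-05, edgeR) and Chkb by 1.35 (adjusted p = 0.00687). Etnk2, an ethanolamine kinase, fell from 663 ± 83.1 to 145 ± 75.7 CPM (-2.20, adjusted p = 0.000523), and Pemt, which methylates phosphatidylethanolamine to phosphatidylcholine, by 0.68 (adjusted p = 0.00383). In DKO livers Chka (2.33, adjusted p = 0.0249) and Chkb (1.43, adjusted p = 0.0244) were higher and Chpt1, cholinephosphotransferase, was lower (-0.47, adjusted p = 0.0357), against 6.06% of all genes higher and 4.39% lower. Without DKO replicate 4, 3 genes of this list were higher and 5 lower, against 18.4% and 17.5% of all genes, whereas Chka, Chkb and Chpt1 lost their calls without any of the other 7 livers, apart from Chkb without WT replicate 3.

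Among 18 regulators of these genes, 2 were higher and 4 lower in SKO livers, against 32.1% of all genes called. The lower count was 6 by DESeq2 and without the filter. Library totals alone, which also moved all genes towards higher, gave 3 higher and 3 lower. Their median log2 fold change was -0.38. Pparg, a nuclear receptor that drives lipid storage, rose from 8.04 ± 0.592 to 22.5 ± 2.18 CPM (1.48, adjusted p = 1.95e-05, edgeR) and to 19.2 ± 3.86 CPM in DKO livers (1.27, adjusted p = 0.00636), where it was the only regulator past the threshold, against 6.06% of all genes higher. Nr0b2, the repressor SHP, had 32.7 ± 9.02 CPM in WT and 1.14 ± 1.80 in SKO livers (-4.93, adjusted p = 0.000331). Srebf1 and Mlxipl, the lipogenic factors SREBP1 and ChREBP, fell by 1.22 (adjusted p = 0.000694) and 0.89 (adjusted p = 0.00639) on the log2 scale. Without DKO replicate 4, 2 regulators were higher and 8 lower in DKO livers, against 18.4% and 17.5% of all genes, and without SKO replicate 3, 2 were higher and 6 lower in SKO livers. In DKO against SKO 0 genes of these 5 lists passed by edgeR, and 1 passed by DESeq2, Ddhd2, which was lower in DKO livers (-0.88, adjusted p = 0.0474 by DESeq2, and -0.87, adjusted p = 0.396 by edgeR).

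**Figure D4:**
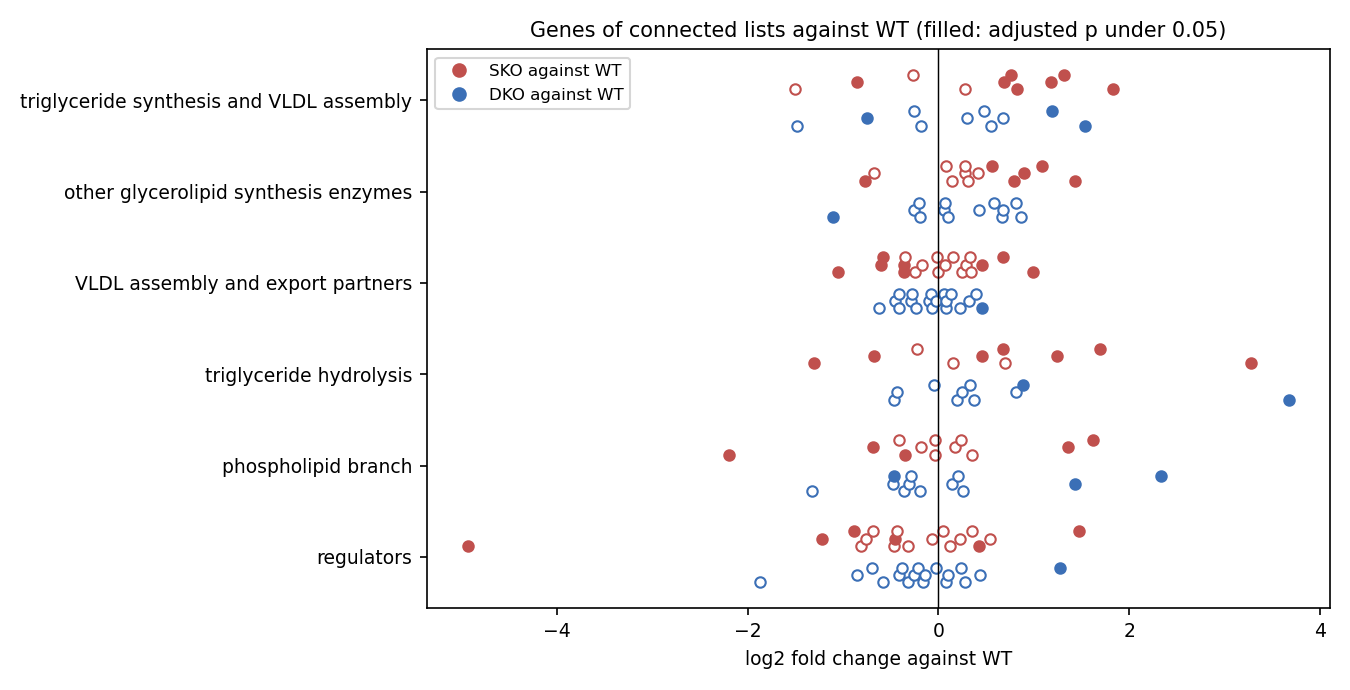
Log2 fold change against WT (horizontal axis) of each tested gene of the 10 members and of the 5 connected lists, for SKO and DKO livers, filled where the adjusted p was under 0.05. The members' median is 0.73 in SKO livers, and the points of the VLDL partners lie on both sides of 0.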

How the data were processed

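Flash-frozen liver was extracted with TRIzol, the RNA was cleaned on RNeasy columns, and libraries were made and sequenced by Novogene. The authors deposited raw read counts per Ensembl gene, without normalization, and FPKM values of the same genes. The submitters' processing notes name HISAT2 and the builds GRCm38 and mm10. The counting program, annotation release and strand setting are not given in the sources used here. Gene coordinates are as the deposited table gives them. They differ from GRCm38 for all 10 genes described and match it for 1435 of 52073 shared genes, so they were not joined to the promoters. Deposited tables of the authors' fold changes and p-values were not used. The table held 0 columns of other samples.

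Genotypes were compared pairwise (8 livers) with edgeR 4.0.16 in R 4.3.3 (limma 3.58.1), using TMM scaling, filterByExpr and the quasi-likelihood test, two-sided, with Benjamini-Hochberg adjustment over all genes tested and a threshold of 0.05. The standard error is the log2 fold change divided by the square root of F. CPM was scaled by TMM over all 12 livers, and CPM per kb divides it by the gene length of the table. The deposited FPKM served only to check the order of levels. No library was a copy of another (smallest chi-square per degree of freedom 18.5).

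All 10 genes were described. Of each list the text names the genes past the threshold with the 4 smallest p-values, plus Apob and P4hb, and for each member the 2 closest genes. The members and lists were chosen with earlier results of these data known. Alternatives were DESeq2 1.42.0, RLE, upper-quartile and library-total scaling, no filter, a fit of 12 livers, the replicate number as a block, and leaving out each liver. The list counts and calls without 1 liver were added after seeing the data. The test was tried on simulated data first. The sources do not say beyond the labels that livers of a genotype came from separate litters or cohorts.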

Additional observations from a re-analysis of the deposited data

Results flagged for a closer look

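Lpin1 in WT replicate 3 stood far from the other WT livers, with 1023 CPM against 180 to 293 CPM in the other 3. Its gap to the nearest of them was 0.866 of the range of the group, above the 95% critical value of Dixon's test for 4 values. Of the 30 groups of 4 values tested (10 genes in 3 genotypes) this was the only 1 that stood out, and chance gives about 1 in 20. The same liver was also the highest WT liver for Lpin2 (835 CPM), Gpat4 (319 CPM) and Dgat2 (632 CPM) and the lowest for Agpat2 (142 CPM), within the limits of the test.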

How the results depend on the processing

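In SKO against WT the number of members past the threshold was 6 to 8 under the 15 alternatives (7 in the main test), and that of all genes 3617 to 5321. All 10 members kept their direction against WT in both knockouts under every alternative run. In DKO against WT the members past the threshold numbered 5 with library totals alone and 1 to 7 when 1 liver was left out, the 7 being without DKO replicate 4. The number of all genes there was 2509 by DESeq2, 807 with the replicate block and 244 to 5253 with 1 liver left out, the highest again without DKO replicate 4. In DKO against SKO all genes past the threshold numbered 91 by DESeq2, 35 without the filter, 0 with the replicate block, 21 without both SKO replicate 3 and DKO replicate 4, and 0 to 15 with 1 liver left out, while members remained at 0. The replicate numbers were not taken to pair livers, since same-numbered livers correlated at -0.435 to 0.157 in their deviations from the group means, and 3 of 12 pairs were over 0.1. With this block Lpin1 passed in SKO (-1.64, adjusted p = 0.000316) and Lpin2 did not in DKO livers (adjusted p = 0.0621). Among the lists in SKO livers the block gave 2 higher and 9 lower regulators, 3 and 1 other enzymes, 2 and 1 VLDL partners, 5 and 2 hydrolysis genes and 2 and 2 phospholipid genes. In DKO livers the block gave 0 and 0 VLDL partners, 0 and 0 phospholipid genes, 1 and 0 hydrolysis genes, 1 and 0 regulators and 0 and 1 other enzymes. The calls of Lpcat3, Chka, Chkb and Chpt1 there were thus lost. The split of all genes under the block, or in SKO livers with 1 liver left out, was not set beside the list counts. Those counts are therefore not read as traits of the lists. Lpin1 also passed in SKO without the filter (-1.48, adjusted p = 0.00429). Dgat1 passed in DKO livers by DESeq2 (0.65, adjusted p = 0.0410), in the fit of 12 livers (0.66, adjusted p = 0.0399) and with library totals (0.87, adjusted p = 0.0366), as did Mttp with library totals (0.66, adjusted p = 0.0476). Log2 fold changes that turned in sign were all in DKO against SKO, and none was past the threshold. Dgat2 was -0.011 by DESeq2, -0.021 without the filter, -0.011 with the replicate block, -0.11 to 0.081 with 1 liver left out and -0.073 without both livers named. Lpin1 was -0.064 with library totals, -0.013 without the filter, -0.059 with the block, -0.91 to 0.85 with 1 liver left out and -0.094 without both. Dgat1 was -0.24 to 0.041 with 1 liver left out and 0.028 without both, and Lpin2 was 0.075 without both. Where leaving out livers does not state it, the cause was not tested. The order of levels per length was the same by FPKM for 30 of 30 places. With 4 livers a group, depth limits Mogat1 most, at 12 to 84 counts.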

Other observations

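Markers of other cell types were read for the same livers, as summed CPM. DKO replicate 4 set 1 end of the DKO range for the macrophage, cholangiocyte, adipocyte and enterocyte lists, so the DKO values are also given without it, where 18.4% of all genes were higher and 17.5% lower. Over the WT, SKO and DKO livers in this order, stellate cell markers were 185 to 221, 255 to 344 and 239 to 296. In SKO livers 1 of 7 (Dcn) was higher, against 16.7% of all genes, so this count did not stand out. Dcn was higher in DKO livers only without DKO replicate 4. Endothelial markers were 159 to 352, 207 to 280 and 189 to 273, with 0 of 7 past the threshold in either comparison with WT by edgeR, also without DKO replicate 4. Macrophage markers were 163 to 331, 160 to 355 and 103 to 343. Cd68 was the 1 of 8 that was higher in SKO livers, against 16.7% of all genes, so this count did not stand out. Marco was the 1 of 8 that was lower in DKO livers, against 4.39% of all genes. DKO replicates 1 to 3 had 103 to 151 CPM, below every WT liver, and without DKO replicate 4, 6 of 8 macrophage markers were lower and 1, Cd68, was higher in DKO livers. The calls of Marco and Sox9 with all DKO livers held in 2 and 4 of 8 fits that each left out 1 liver. Cholangiocyte markers were 27.9 to 33.3, 7.41 to 14.5 and 9.60 to 31.3. Of 4 tested, 2 (Sox9, Spp1) were lower in SKO livers, against 15.4% of all genes, and 1 (Sox9) in DKO livers, against 4.39%. The sum of this list was 9.60 to 18.7 CPM in DKO replicates 1 to 3, and without DKO replicate 4, 2 of 5 tested (Sox9, Spp1) were lower. The adipocyte markers Lep and Retn were at 0 in all knockout livers and Lep and Plin1 in all WT livers, while Plin1 had 0.318 ± 0.165 CPM (n = 4) in SKO and 0.0801 ± 0.0661 CPM in DKO livers, and only Adrb3 of that list was tested. Adrb3 was lower in SKO livers (10.2 ± 2.58 CPM in WT and 0.758 ± 0.415 in SKO, n = 4, log2 fold change -3.75, adjusted p = 2.44e-05, edgeR) and did not pass in DKO livers (-2.36, adjusted p = 0.0536), but was lower there without DKO replicate 4 (-3.77, adjusted p = 1.05e-05). Of the enterocyte list, whose cells also express Mttp, 3 of 3 tested genes were higher in SKO livers, against 16.7% of all genes, namely Apoa4 (4.26, adjusted p = 1.37e-05), Fabp2 (1.76, adjusted p = 0.000400) and Mogat2 (1.43, adjusted p = 0.0322), whose call held in 3 of 8 such fits (adjusted p = 0.00594 to 0.0956). In DKO livers Apoa4 (3.52, adjusted p = 0.0244) and Fabp2 (1.14, adjusted p = 0.0317) were higher, against 6.06% of all genes, and each call held in 1 of the 8 such fits, that without DKO replicate 4, in which 3 of 3 were higher. Vil1 was not tested and had 0.399 ± 0.398 CPM in WT and 0.0829 ± 0.0290 in SKO and 0.0896 ± 0.0726 in DKO livers. Sis was at 0 in all 12 livers, and the sum of 472 to 945, 7748 to 17119 and 591 to 10383 CPM (8802 to 10383 without DKO replicate 4) was mostly Apoa4, which hepatocytes also express. Their part in the levels of Mttp and Mogat1 was not tested. The marker genes were chosen as lists, and those named here beyond the counts were named after their values were seen.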
